A study of Xenopus laevis with 6 samples.

Results

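Animal caps of the frog Xenopus laevis carried morpholinos against the atypical MAP kinase ERK3 or a control morpholino. The Wnt pathway genes described here are 55 genes measured in these caps. They were taken from the array annotation by name: every probe set with a single gene symbol beginning with wnt, fzd, sfrp, dkk, dvl or axin, or standing for lrp5, lrp6, frzb, lef1, tcf7, tcf7l1, tcf7l2, sp5, wif1, ror2 or apc. This gave 81 probe sets for 55 symbols, out of 11303 symbols on the array, and the probe set with the highest mean signal stood for each symbol. The 55 counts symbols, and for 3 of them (frzb, wnt5a-a and wnt2b-b), which had no match in the RefSeq gene table, it is not known whether they are copies of others in the set. The 55 genes comprise 14 ligands, 14 receptors, 12 secreted antagonists, 8 cytoplasmic components and 7 nuclear effectors. Symbols ending in .L and .S name the copies of a gene on the long and short subgenomes of this tetraploid frog.

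Wnt ligands are secreted lipid-modified proteins that bind Frizzled receptors, together with the co-receptors Lrp5 and Lrp6 in the β-catenin branch or with Ror2 in the branch that directs cell movement. In the β-catenin branch, Dishevelled (Dvl) relays the signal to a destruction complex built on Axin and Apc, β-catenin escapes degradation, and Tcf and Lef proteins switch from repression to activation of target genes. Dickkopf1 (Dkk1), Sfrp, Frzb and Wif1 are secreted inhibitors that bind the co-receptors or the ligands. The other dkk genes are grouped with the secreted antagonists here by name alone. In the Xenopus gastrula, Wnt8 from ventrolateral mesoderm patterns the body axis, antagonists such as Dkk1 and Frzb come from the Spemann organizer, and Wnt11 and Wnt5 ligands act in gastrulation movements.

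Animal caps are explants of prospective ectoderm from the blastula. Left to themselves they become epidermis, and activin turns them towards mesoderm and endoderm. Embryos made by in vitro fertilization, of a strain not given in the sources used here, received morpholinos (antisense oligonucleotides) in all blastomeres at the 4-cell stage. Explants were taken at stage 9 and collected at stage 15. Caps grown with activin and retinoic acid (activin/RA) came from embryos given ERK3 MO1/2 (a mixture of MO1 with MO2, 40 ng of either), ERK3 MO3 (80 ng) or control MO (80 ng), and untreated caps, grown with neither agent, came from the same 3 kinds of embryo. Each of these 6 groups is 1 GeneChip array from a single experiment, and every cap, controls included, carried a morpholino. The effects of activin and of retinoic acid cannot be told apart, since they were given only together. No probe set carried the symbol mapk6, the gene for ERK3, so its transcript was not analysed here. With 1 array per group, spread comes only from the 3 injections compared across cultures and from the MO1/2 and MO3 reagents used as a pair, so that p-values measure the spread between these arrays and not that between clutches.

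The tissue labels were set against marker genes, from lists chosen with earlier results of these data known. The counts below therefore describe the caps and are not an independent check of the labels. All 16 mesoderm and endoderm markers were higher with activin/RA (limma adjusted p under 0.05), and their summed signal was 4282 with MO1/2, 2914 with MO3 and 3322 with control MO in activin/RA caps, against 226, 244 and 175 in untreated caps with the same injections. Of 16 epidermal markers 4 were higher with activin/RA and 0 lower, with summed signals of 5957 to 10972 in activin/RA caps and 4472 to 11870 in untreated caps. Muscle (7 probe sets) and blood (4 probe sets) markers summed to 93.3 to 127 and 21.1 to 22.9 in activin/RA caps, against 175 to 235 and 21.0 to 22.8 in untreated caps. Of 11 neural markers 1 was lower with activin/RA and 0 higher, with sums of 4035 to 4800 in activin/RA caps and 4685 to 5816 in untreated caps. Of 6 maternal markers 5 were lower with activin/RA, at sums of 430 to 648, against 652 to 1640 in untreated caps. Sums of linear signals weigh the brightest probe sets most. Among epidermal markers krt70.S stood at a log2 signal of 12.84 in the untreated control array and 12.07 in the activin/RA control array. Among muscle markers myod1.L stood at 6.81 in the untreated control array. RMA signals are never 0, so that no marker could be listed as absent. The part of the cell type markers in the Wnt gene changes with activin/RA was not tested.

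The levels below are log2 RMA signals. The median of all log2 values was 5.10 and their 25th percentile 2.84. Of the 55 genes, 12 lay above that median on all 6 arrays and 26 on at least 1 array, while 10 lay below the 25th percentile on all arrays. Those 10 were wnt1.L, wnt2b.L, wnt3a.S, wnt6.S, wnt7b.L, wnt11.S, dkk2.L, sfrp5.S, axin1.L and sp5.S, where small changes are compressed and the RMA values carry no detection call. Probe sets differ in their response, so levels are compared between arrays for each gene and not between genes.

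Activin/RA raised 16 of the 55 Wnt pathway genes and lowered 1. That is 29.1% higher and 1.82% lower, against 9.60% higher and 10.9% lower (20.5% either way) among all 32539 probe sets tested. The latter include 16765 with no symbol, while each of the 55 is the brightest probe set of its symbol. Among probe sets above the median on at least 1 array, 13 of 26 of the genes rose and 0 fell, against 32.4% of probe sets called either way. All 3 activin/RA arrays lay above all 3 untreated arrays for 19 of the genes, against 15.1% of all probe sets. The genes that rose were 4 ligands, 4 receptors, 5 secreted antagonists, 1 cytoplasmic component and 2 nuclear effectors. The median change of the 55 genes was 0.19 on the log2 scale, against -0.01 over all probe sets. These calls come from limma with the morpholino as a block and Benjamini-Hochberg adjustment over all probe sets at 0.05. Fewer cells of a type and less RNA per cell cannot be told apart in such bulk caps.

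**Figure D1:**
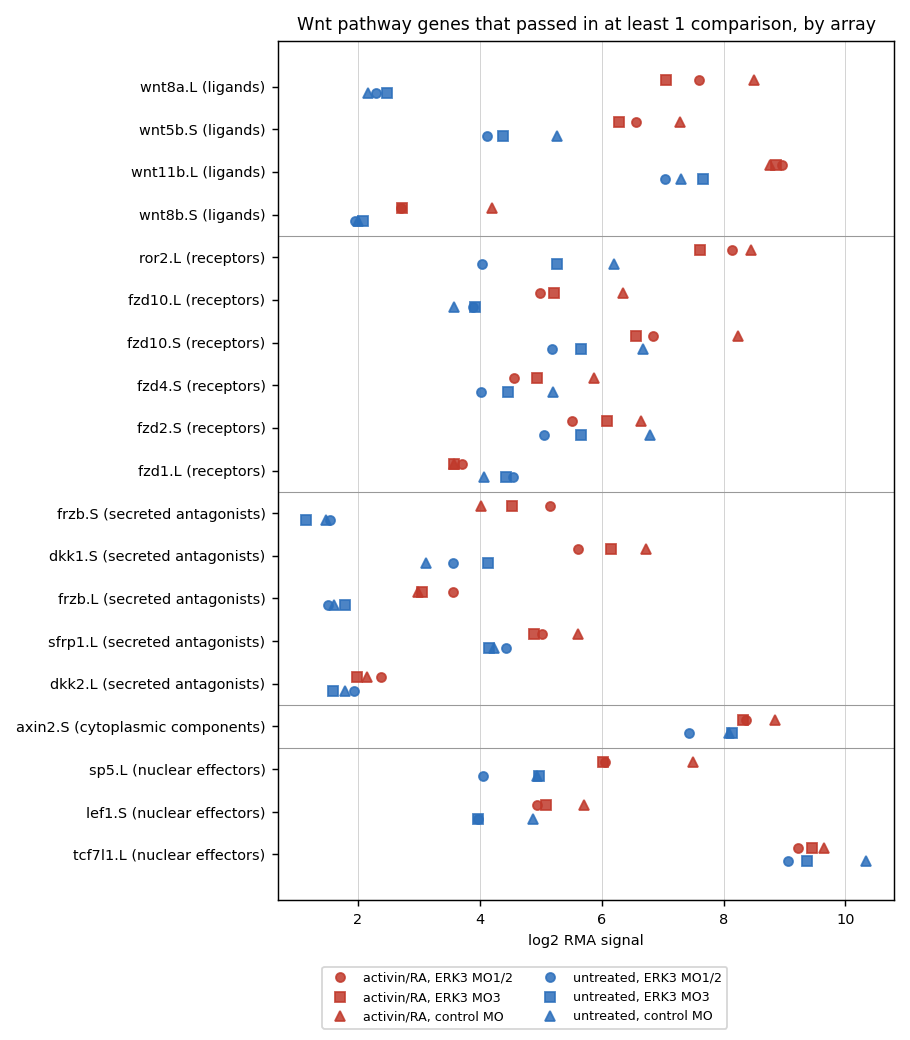
Log2 RMA signal (horizontal axis) of the 19 Wnt pathway genes that passed in at least 1 comparison, with 1 symbol per array (red, activin/RA; blue, untreated; circle, MO1/2; square, MO3; triangle, control MO). For wnt8a.L the activin/RA arrays lie at 7.06 to 8.50 and the untreated arrays at 2.17 to 2.48, while tcf7l1.L stands apart only in the untreated control array at 10.34.

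Among the ligands, the mesodermal ligand gene wnt8a.L had log2 signals of 7.60 with MO1/2, 7.06 with MO3 and 8.50 with control MO in activin/RA caps, against 2.29, 2.48 and 2.17 in untreated caps. The cultures did not overlap, and the untreated values lay below the 25th percentile of the arrays. The change was 5.41 ± 0.31 (SE; limma adjusted p = 9.85e-05). With 16 added to each signal before log2, which damps such low levels, it was 3.45 (adjusted p = 0.00074), so that the size rests on the dim untreated values. wnt5b.S, a ligand of the cell-movement branch, had signals of 6.56, 6.29 and 7.29 in activin/RA caps, against 4.12, 4.37 and 5.26 in untreated caps in the same order of injections. These cultures were also separate, by 2.13 ± 0.17 (limma adjusted p = 0.00039).

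The third ligand gene that rose, wnt11b.L, encodes a ligand stored in the Xenopus egg and used again in the marginal zone. It had signals of 8.95, 8.86 and 8.76 in activin/RA caps, against 7.04, 7.67 and 7.30 in untreated caps, so it was above the median of the arrays in both cultures. Its change was 1.52 ± 0.16 (limma adjusted p = 0.00114), a 2.87-fold difference, and the 3 activin/RA arrays differed from each other by less than the untreated arrays did. wnt8b.S, a ligand known from the forebrain, had signals of 2.70, 2.72 and 4.20 in activin/RA caps, against 1.95, 2.09 and 2.00 in untreated caps. Only the activin/RA control array rose well clear of the low end of the scale, and the change over the 3 pairs was 1.19 ± 0.29 (limma adjusted p = 0.0277). The other 10 ligand probe sets, among them wnt4.L, wnt5a.S and wnt2b.L, did not pass, with changes of -0.35 (wnt2b-b) to 0.37 (wnt4.L). For wnt4.L the activin/RA arrays lay at 3.204, 4.03 and 3.32, against 3.19, 3.08 and 3.18 in untreated caps, and only the MO3 array stood well above the untreated arrays.

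Among the receptors, the largest change was that of ror2.L, the receptor tyrosine kinase for Wnt5 ligands. Its signals were 8.13 with MO1/2, 7.61 with MO3 and 8.45 with control MO in activin/RA caps, against 4.03, 5.26 and 6.21 in untreated caps. The cultures did not overlap, and the untreated arrays spread over more than 2 log2 units. The change was 2.90 ± 0.34 (limma adjusted p = 0.00214), a 7.44-fold difference.

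Both copies of fzd10, a Frizzled receptor gene, rose. fzd10.L had signals of 4.99, 5.22 and 6.35 in activin/RA caps, against 3.88, 3.92 and 3.57 in untreated caps (change 1.73 ± 0.31, limma adjusted p = 0.0108). fzd10.S had signals of 6.84, 6.56 and 8.24 in activin/RA caps, against 5.19, 5.66 and 6.68 in untreated caps (change 1.37 ± 0.18, limma adjusted p = 0.00331). The cultures were separate for fzd10.L and overlapped for fzd10.S, where the activin/RA MO3 array lay below the untreated control array, although each injection was higher with activin/RA. fzd4.S rose by less, with signals of 4.56, 4.93 and 5.88 against 4.03, 4.47 and 5.20 in untreated caps (0.56 ± 0.15, limma adjusted p = 0.043). Its cultures overlapped too, with the untreated control array above both ERK3 arrays of activin/RA caps.

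The Frizzled gene fzd1.L was the only one of the 55 that fell with activin/RA under this test. It had signals of 3.71, 3.58 and 3.57 in activin/RA caps, against 4.55, 4.43 and 4.06 in untreated caps (change -0.72 ± 0.16, limma adjusted p = 0.0206). The cultures did not overlap, and all 6 values were below the median of the arrays. The co-receptor genes lrp5.L (-0.33) and lrp6.L (-0.04) did not pass. The changes of the Frizzled genes that did not pass lay between -0.11 for fzd7.L and 1.01 for fzd3.L (adjusted p = 0.0533). fzd7.L, a maternal Frizzled of the early embryo, kept to 9.08 to 9.56 in activin/RA caps and 9.39 to 9.69 in untreated caps. The 4 probe sets of fzd8.S disagreed, with changes of -0.42 to 0.68.

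The secreted antagonists that rose included both frzb copies with a subgenome suffix. frzb.S, whose protein binds Wnt8 outside the cell, had signals of 5.15 with MO1/2, 4.53 with MO3 and 4.02 with control MO in activin/RA caps, against 1.55, 1.15 and 1.48 in untreated caps (change 3.17 ± 0.21, limma adjusted p = 0.00019). frzb.L had signals of 3.56, 3.06 and 2.98, against 1.51, 1.78 and 1.61 in untreated caps (1.57 ± 0.17, limma adjusted p = 0.00136). For both copies the cultures were separate, and the highest activin/RA value was that of MO1/2. All untreated values of both copies lay below the 25th percentile of the arrays, and with 16 added before log2 the changes were 1.11 for frzb.S and 0.40 for frzb.L. A further probe set annotated as frzb with no suffix did not pass (-0.38).

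dkk1.S, the gene of the Lrp5 and Lrp6 antagonist Dickkopf1, had signals of 5.60, 6.16 and 6.73 in activin/RA caps, against 3.56, 4.13 and 3.12 in untreated caps. The cultures did not overlap, with a change of 2.56 ± 0.31 (limma adjusted p = 0.00245), and the second dkk1.S probe set changed by 2.18. sfrp1.L, a secreted Frizzled-related protein gene, rose as well, at 5.02, 4.90 and 5.61 against 4.42, 4.14 and 4.24 in untreated caps (0.91 ± 0.20, limma adjusted p = 0.0189). dkk2.L passed at the bottom of the scale, with 2.39, 1.98 and 2.15 in activin/RA caps against 1.93, 1.60 and 1.78 in untreated caps (0.40 ± 0.09, limma adjusted p = 0.0231). The other antagonist genes did not pass. Among them sfrp2.S stood at 9.54 to 9.75 in activin/RA caps and 9.08 to 9.70 in untreated caps, and sfrpx.S, whose probe set by its name can share probes with other transcripts, stood at 5.59 to 5.80 and 5.01 to 5.51.

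Inside the cell, 1 of 8 cytoplasmic genes passed. axin2.S, a scaffold gene that is itself a transcriptional target of β-catenin, had signals of 8.38 with MO1/2, 8.32 with MO3 and 8.85 with control MO in activin/RA caps, against 7.43, 8.14 and 8.09 in untreated caps (0.63 ± 0.16, limma adjusted p = 0.0337). A second axin2.S probe set changed by 0.49 without passing (limma adjusted p = 0.11). The other copy, axin2.L, had a change of 0.70 ± 0.21 without passing (adjusted p = 0.0568), with overlapping values of 9.25, 8.69 and 9.33 against 8.25, 8.70 and 8.21 in untreated caps. The Dishevelled genes dvl2.L (-0.10) and dvl3.L (-0.29), apc.L (0.27) and both axin1 copies (-0.11 and 0.07) did not pass.

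Among nuclear effectors, sp5.L and lef1.S rose. sp5.L, a zinc-finger target and feedback repressor of the pathway, had signals of 6.06, 6.03 and 7.50 in activin/RA caps, against 4.06, 4.97 and 4.94 in untreated caps (1.87 ± 0.27, limma adjusted p = 0.00465). lef1.S, the gene of a mainly activating partner of β-catenin, had signals of 4.94, 5.09 and 5.72, against 3.97, 3.98 and 4.88 in untreated caps (0.97 ± 0.16, limma adjusted p = 0.00691). The cultures did not overlap for either gene, but for lef1.S the untreated control array reached close to the ERK3 arrays of activin/RA caps. tcf7l1.L, tcf7l1.S, tcf7.S and tcf7l2.L had changes between -0.17 and 0.05 and did not pass.

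**Figure D2:**
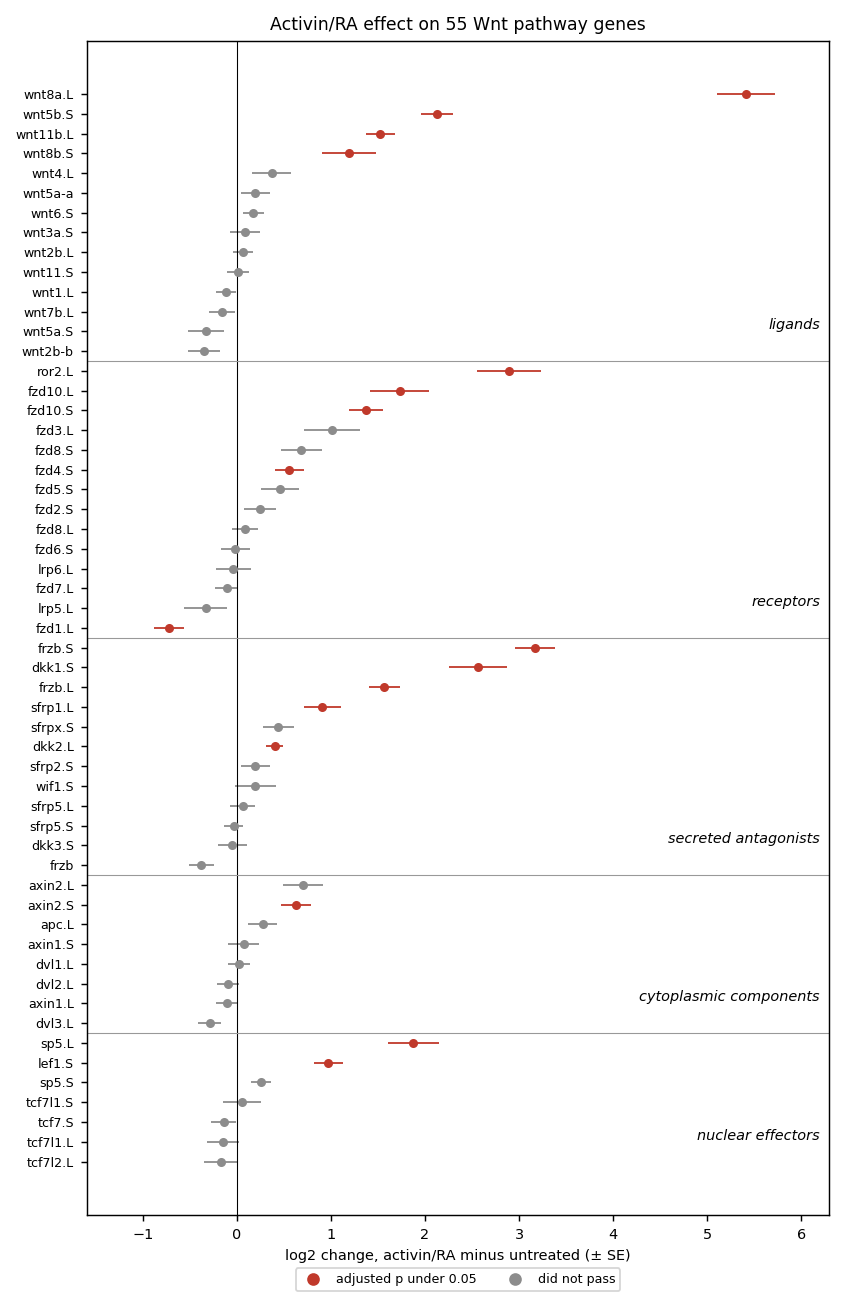
Log2 change between activin/RA and untreated caps (horizontal axis, ± SE from limma over 3 injections) of the 55 Wnt pathway genes, grouped by role, with genes that passed at an adjusted p under 0.05 in red. Changes run from -0.72 for fzd1.L to 5.41 for wnt8a.L, and 16 of the 17 red genes lie to the right of 0.

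Of the 17 calls, 9 passed wherever they were tested, with alternative settings and with any single array left out, namely those of wnt8a.L, wnt5b.S, wnt11b.L, ror2.L, fzd10.L, dkk1.S, both suffixed frzb copies and sp5.L. frzb.L was too dim to be tested among probe sets above the median. With 16 added before log2 the sizes also shrank by more than 1.5 times for wnt8b.S (0.37, adjusted p = 0.0689), fzd10.L (1.07), fzd4.S (0.36, adjusted p = 0.0644), fzd1.L (-0.36), dkk1.S (1.64), dkk2.L (0.08), sfrp1.L (0.57) and lef1.S (0.60). Without the untreated or the activin/RA MO1/2 array 10 genes rose and 0 fell, where calls over all probe sets dropped to 5.71% and 5.94%. Without the untreated or the activin/RA MO3 array 14 rose and 0 fell, where 7.86% and 7.92% of all probe sets were called. Without either control MO array 21 rose and 4 fell, where 32.7% of all probe sets were called. With the morpholino as a block, the partner of an array left out no longer counts, so both arrays of an injection gave the same change. For wnt8a.L it was 4.95 with the untreated or the activin/RA control MO array left out. It was 5.46 with the untreated or the activin/RA MO1/2 array left out.

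**Figure D3:**
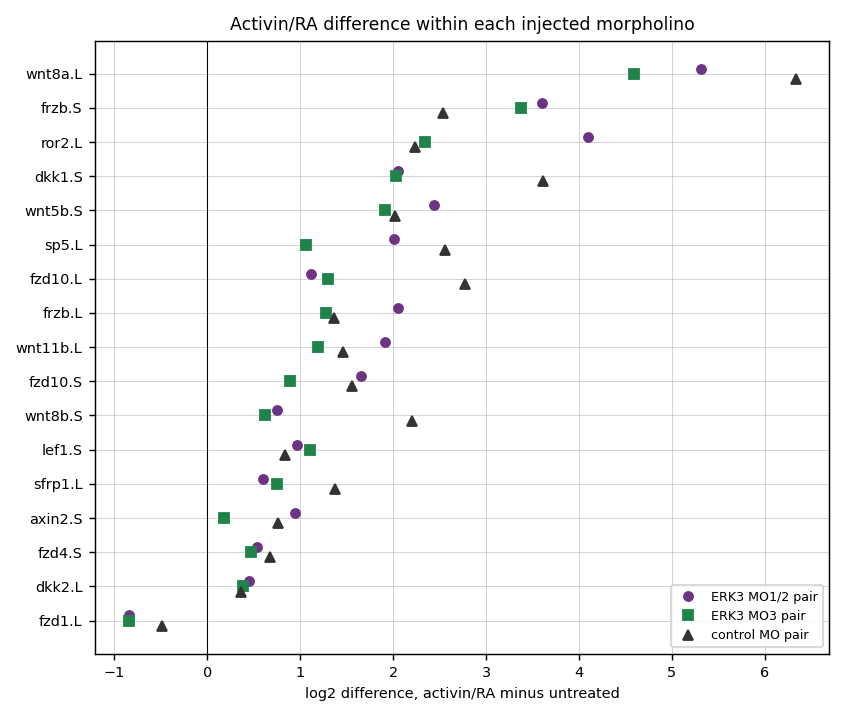
Log2 difference between activin/RA and untreated caps (horizontal axis) within each injected morpholino for the 17 genes that passed for activin/RA, 1 symbol per pair of arrays. The control MO pair (triangle) lies furthest right for wnt8a.L at 6.33, dkk1.S at 3.61, fzd10.L at 2.78, sp5.L at 2.55 and wnt8b.S at 2.202, and the MO1/2 pair (circle) for ror2.L at 4.10.

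The size of the activin/RA difference varied with the injected morpholino. In 7 of the 16 genes that rose it was larger in the control pair than in both ERK3 pairs, in 4 it was smaller than in both and in 5 it lay between, while among all probe sets called higher the first case made up 23.2%. The ligand gene wnt8a.L differed by 5.31 between the arrays injected with MO1/2 and by 4.59 between those injected with MO3, against 6.33 in the control pair. For wnt8b.S it was 0.75 and 0.63 in the ERK3 pairs, against 2.202 in the control pair, and for fzd10.L 1.11 and 1.30, against 2.78. The opposite order held for frzb.S, at 3.61 and 3.37 in the ERK3 pairs, against 2.53 in the control pair. ror2.L differed by 4.10 and 2.35 in the ERK3 pairs, against 2.24 in the control pair. None of these differences between pairs passed its own test, given with the knockdown below.

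In untreated caps, which form epidermis, ERK3 knockdown lowered 5 of the 55 genes and raised 0. The 5 were the Frizzled genes fzd10.S and fzd2.S, the Tcf gene tcf7l1.L, the ligand gene wnt5b.S and lef1.S. This is 9.09% of the genes, against 3.56% lower and 3.14% higher (6.70% either way) among all probe sets. Among probe sets above the median on at least 1 array, 4 of 26 of the genes fell and 0 rose. Of all such probe sets 11.5% were called either way. lef1.S did not pass in that setting. At an unadjusted p under 0.05, 12 were lower and 3 higher (21.8% and 5.45% of the genes), against 11.7% lower and 12.2% higher among all probe sets. The median change of the 55 was -0.02, against 0.01 over all probe sets. MO1/2 and MO3 stood in for replicates in this limma fit, and both are set against the same control array.

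Each of the 5 was at its highest in the untreated control array among untreated caps. tcf7l1.L, the gene of the Tcf that mainly represses targets in the early Xenopus embryo, had signals of 9.05 with MO1/2 and 9.37 with MO3, against 10.34 with control MO (-1.13 ± 0.18, limma adjusted p = 0.0223). fzd10.S had 5.19 and 5.66, against 6.68 with control MO (-1.26 ± 0.26, limma adjusted p = 0.0357), and its second probe set changed by -0.75 without passing. fzd2.S had 5.06 and 5.66, against 6.80 with control MO (-1.44 ± 0.33, limma adjusted p = 0.0469). For these receptor genes both reagents gave at least a 2-fold reduction, which 2.54% of all probe sets showed in untreated caps. None of the 55 genes was raised 2-fold with both, against 2.05% of all probe sets.

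wnt5b.S had signals of 4.12 with MO1/2 and 4.37 with MO3, against 5.26 with control MO (-1.01 ± 0.23, limma adjusted p = 0.0481). lef1.S had 3.97 and 3.98, against 4.88 with control MO (-0.91 ± 0.21, limma adjusted p = 0.0493). The reagents stood close together for lef1.S, at -0.91 with MO1/2 and -0.90 with MO3 relative to the control array, and further apart for fzd2.S, at -1.73 and -1.14. Without the untreated MO1/2 array 0 of the 55 passed, with adjusted p of 0.0574 for tcf7l1.L to 0.152 for wnt5b.S. Without either activin/RA ERK3 array 3 passed, wnt5b.S and lef1.S being lost, and the same calls were lost with 16 added before log2 (-0.63 and -0.52). Without the untreated MO3 array 6 passed, with wnt5b.S (adjusted p = 0.0526) and lef1.S (adjusted p = 0.0887) lost and fzd3.L, fzd8.S and ror2.L gained. With either untreated ERK3 array left out, 1 array is set against 1, and the spread comes from the activin/RA caps alone.

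**Figure D4:**
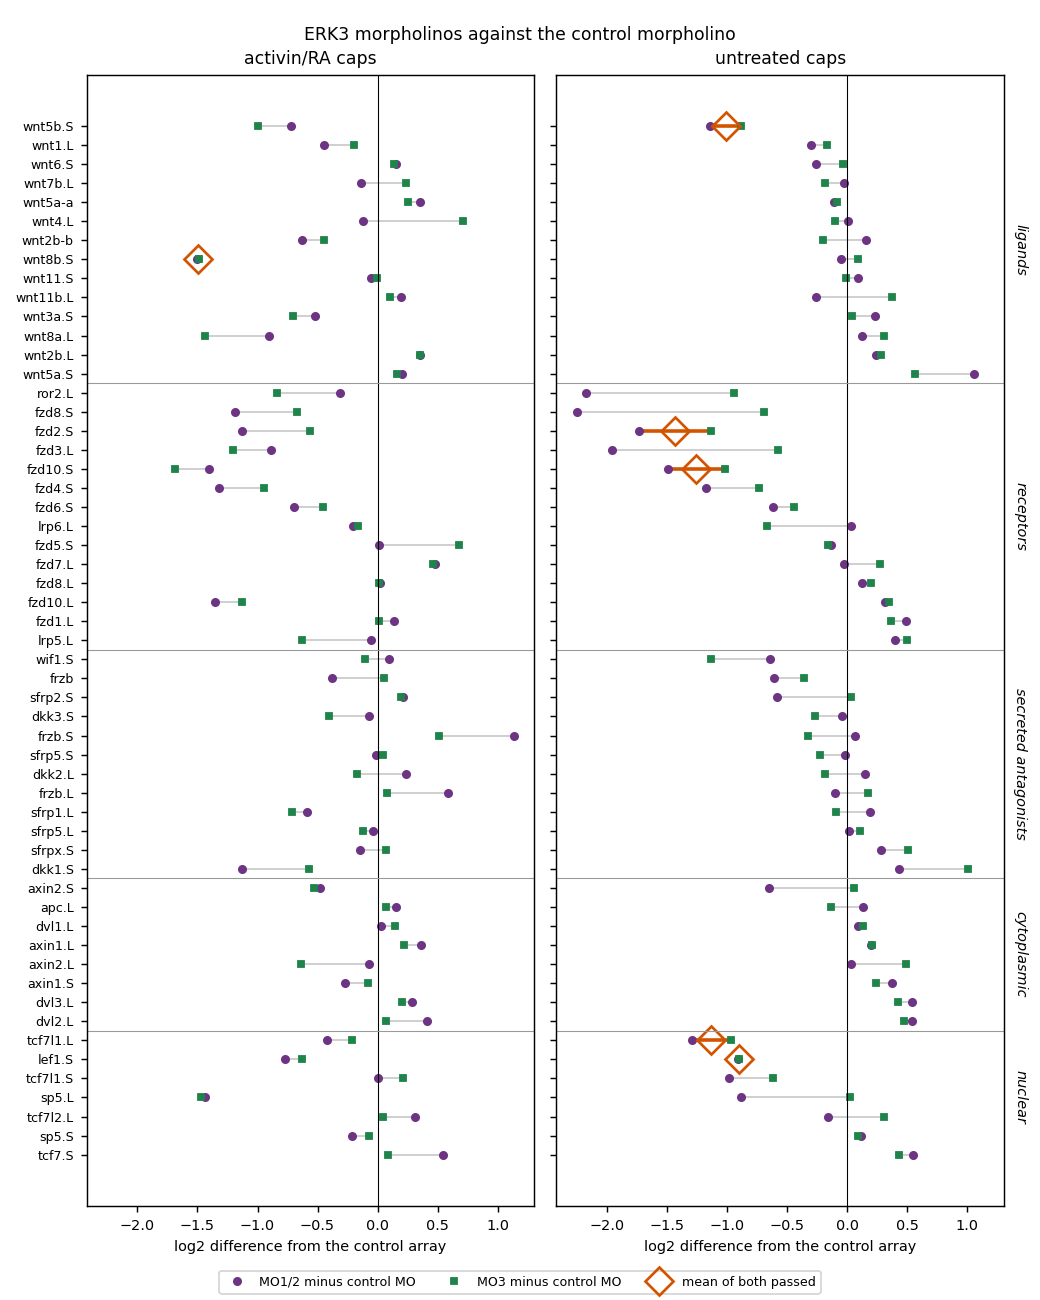
Log2 difference of the MO1/2 array (circle) and the MO3 array (square) from the control MO array of the same culture (horizontal axis) for the 55 Wnt pathway genes, grouped by role, in activin/RA caps (left) and untreated caps (right). Orange diamonds mark the mean of both reagents where it passed: wnt8b.S at -1.50 in activin/RA caps, and wnt5b.S, fzd2.S, fzd10.S, tcf7l1.L and lef1.S between -1.44 and -0.91 in untreated caps.

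The other receptors show how far the reagents differed. ror2.L had signals of 4.03 with MO1/2 and 5.26 with MO3, against 6.21 with control MO, a mean change of -1.56 ± 0.47 that did not pass (limma adjusted p = 0.0912). For fzd8.S the signals were 5.80 and 7.37, against 8.06 with control MO (-1.47 ± 0.55, adjusted p = 0.158), and the 4 probe sets of the gene ranged from -1.47 to 0.07. fzd3.L had 2.58 and 3.96, against 4.54 with control MO (-1.27 ± 0.50, adjusted p = 0.173). In all 3 the MO1/2 array lay furthest from the control. fzd4.S had 4.03 and 4.47, against 5.20 with control MO (-0.96 ± 0.28, adjusted p = 0.0845).

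Of the 11 Frizzled genes, 7 were below the control array with both reagents in untreated caps and 3 above. Among all probe sets 37.8% lay below the control with both and 41.0% above. Those above were fzd1.L (0.43), fzd8.L (0.16) and fzd10.L (0.33), none of which passed. Genes of other roles also stood apart from the control array without passing. wnt5a.S, a non-canonical ligand gene, had signals of 4.45 with MO1/2 and 3.97 with MO3, which were 1.05 and 0.57 above the control array, a mean difference of 0.81 ± 0.25 that did not pass (adjusted p = 0.101). wif1.S had 3.75 and 3.26, against 4.39 with control MO (-0.89 ± 0.26, adjusted p = 0.0882), and the 4 probe sets of the gene ranged from -0.89 to 0.09. tcf7l1.S, the second copy of the repressor gene, had 6.27 and 6.63, against 7.25 with control MO (-0.80 ± 0.23, adjusted p = 0.0807).

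Cytoplasmic components did not pass in untreated caps, and 6 of the 8 were above the control array with both reagents. dvl2.L had signals of 9.07 with MO1/2 and 9.00 with MO3, against 8.53 with control MO (0.50 ± 0.18, limma adjusted p = 0.145). dvl3.L had 7.91 and 7.79, against 7.37 with control MO (0.48 ± 0.17, adjusted p = 0.148). Both reagents thus stood close together for these signal-relay genes. tcf7.S likewise had 7.78 and 7.67, against 7.24 with control MO (0.49 ± 0.23, adjusted p = 0.245). wnt8a.L (0.21), wnt8b.S (0.02) and both suffixed frzb copies (0.04 for .L and -0.13 for .S) stayed at their low untreated levels with both reagents.

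Other genes moved with this comparison, among them markers from the lists chosen with earlier results of these data known. Of 16 epidermal markers 10 fell and 0 rose, with a summed signal of 4472 with MO1/2 and 5673 with MO3, against 11870 with control MO. Of 6 maternal markers 4 rose and 0 fell, with a sum of 1640 and 1519, against 652 with control MO. The part of these shifts in the Wnt gene values was not tested.

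With activin/RA in the culture, ERK3 knockdown lowered 1 of the 55 genes, wnt8b.S, and raised 0. Among all probe sets 0.126% were lower and 0.0123% higher (0.138% either way) by the same limma test. At an unadjusted p under 0.05, 14 of the 55 were lower and 3 higher (25.5% and 5.45%), against 6.11% lower and 4.75% higher among all probe sets. These shares set the brightest probe sets of named genes against all probe sets, many of them with no symbol. All values of the 55 also rest on the same activin/RA control array. wnt8b.S had signals of 2.70 with MO1/2 and 2.72 with MO3, against 4.20 with control MO (-1.50 ± 0.17, limma adjusted p = 0.0421). Both reagents thus left it below the 25th percentile of the arrays. With 16 added before log2 the change was -0.61 (adjusted p = 0.00492). The call was lost without any single ERK3 array of either culture (adjusted p = 0.0592 to 0.165), without the intensity trend and among the brighter probe sets, where it was not tested.

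A 2-fold reduction with both reagents was also seen for fzd10.S, fzd10.L and sp5.L, which did not pass. With wnt8b.S these are 4 of the 55 genes, against 0.904% of all probe sets, and 0 genes were 2-fold higher, against 0.157%. The sets are unlike, since all probe sets include 16765 with no symbol and the 55 are the brightest of their symbols. Every difference is also taken from the same control array, so the count is a description. fzd10.S had signals of 6.84 and 6.56, against 8.24 with control MO (-1.54 ± 0.26, limma adjusted p = 0.102). fzd10.L had 4.99 and 5.22, against 6.35 with control MO (-1.24 ± 0.22, adjusted p = 0.117). sp5.L had 6.06 and 6.03, against 7.50 with control MO (-1.45 ± 0.35, adjusted p = 0.23). Both ERK3 arrays lay close together in each of the 3, while the selection itself fixed that they lay below the control array. The epidermal markers summed to 5957 with MO1/2 and 6478 with MO3, against 10972 with control MO in these caps, with 1 of 16 passing as lower, and their part in the Wnt gene values was not tested.

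wnt8a.L, the ligand gene with the largest activin/RA response, had signals of 7.60 and 7.06, against 8.50 with control MO (-1.17 ± 0.27, limma adjusted p = 0.216). fzd4.S had 4.56 and 4.93, against 5.88 with control MO (-1.13 ± 0.28, adjusted p = 0.231). dkk1.S had 5.60 and 6.16, against 6.73 with control MO (-0.85 ± 0.33, adjusted p = 0.417). The ERK3 arrays were below the control array in each, without passing. frzb.S went the other way, with 5.15 and 4.53, against 4.02 with control MO (0.82 ± 0.29, adjusted p = 0.389). wnt11b.L did not follow either group, with 8.95 and 8.86, against 8.76 with control MO (0.15 ± 0.26, adjusted p = 0.884).

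Counted without a test, 28 of the 55 genes were below the control array with both reagents in activin/RA caps and 20 above, against 36.2% and 37.5% of all probe sets. In untreated caps 20 were below and 19 above. In both cultures at once 12 of the 55 were below, a share near the 19.7% of all probe sets. Of these 12 genes 6 were Frizzled genes (fzd2.S, fzd3.L, fzd4.S, fzd6.S, fzd8.S and fzd10.S), and the others were ror2.L, wnt5b.S, wnt1.L, dkk3.S, lef1.S and tcf7l1.L. For fzd8.S this holds for the chosen probe set. The 4 probe sets of that gene ranged from -0.93 to 0.47 for knockdown in activin/RA caps. lef1.S had 4.94 and 5.09 in activin/RA caps, against 5.72 with control MO (-0.70 ± 0.21, adjusted p = 0.32). wnt5b.S had 6.56 and 6.29 there, against 7.29 with control MO (-0.86 ± 0.23, adjusted p = 0.277). tcf7l1.L had 9.23 and 9.44, against 9.66 with control MO (-0.32 ± 0.18, adjusted p = 0.575).

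Whether the knockdown effect differed between cultures was tested by the interaction term of the same limma fit. Of the 55 genes 0 passed, as did 0 of all 32539 probe sets, so 0.00% were called. At an unadjusted p under 0.05, 5 of the 55 were negative and 3 positive (9.09% and 5.45%), against 5.04% and 4.36% of all probe sets. The smallest adjusted p was 0.275, for wnt8b.S, whose knockdown effect was -1.50 in activin/RA caps and 0.02 in untreated caps (difference -1.51 ± 0.23). fzd10.L came next, at -1.24 in activin/RA caps and 0.33 in untreated caps (-1.57 ± 0.31, adjusted p = 0.314). These comparisons had 2 residual degrees of freedom, and a difference that misses the threshold is not shown to be absent.

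For 8 genes both subgenome copies were measured. The copies of fzd10 gave close activin/RA changes (1.73 for .L and 1.37 for .S), while in untreated caps the knockdown value was 0.33 for fzd10.L and -1.26 for fzd10.S. Activin/RA changes of sp5 were 1.87 for .L and 0.26 for .S, with the .S copy at 1.90 to 2.32 on all 6 arrays. For axin2 the activin/RA changes were 0.70 for .L and 0.63 for .S. The tcf7l1 copies stood at -1.13 for .L and -0.80 for .S in the untreated knockdown. Differences between copies were not tested, and copies can share probes.

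The other genes of the pathway were taken from a list of receptors' partners, destruction complex kinases, secretion factors and planar polarity genes, 48 of them measured. With activin/RA 4 rose and 5 fell, with a median of 0.07, which as shares are near the 9.60% and 10.9% of all probe sets. Those that rose were the planar polarity genes prickle1.L (1.22 ± 0.17, limma adjusted p = 0.00453), prickle1.S (0.71 ± 0.18, adjusted p = 0.0349), vangl1.L (0.74 ± 0.16, adjusted p = 0.0183) and vangl2.L (0.59 ± 0.14, adjusted p = 0.0237). Others of that kind did not pass, among them vangl2.S (0.10), celsr2.L (0.09), ptk7.L (0.36), ptk7.S (0.39) and daam1.S (-0.11). The genes that fell were csnk1d.S (-0.67), btrc.L (-0.66), dact4.L (-0.60), ryk.S (-0.57) and btrc.S (-0.43), at limma adjusted p of 0.0146 to 0.0361. The β-catenin genes ctnnb1.L and ctnnb1.S did not pass (adjusted p = 0.0856 and 0.12). With ERK3 knockdown in untreated caps 1 rose and 2 fell, against 3.14% and 3.56% of all probe sets. dact1.S, a Dishevelled-binding modulator gene, had signals of 6.68 with MO1/2 and 6.91 with MO3, against 5.49 with control MO (1.31 ± 0.22, adjusted p = 0.0248). bambi.L, the gene of a BMP pseudoreceptor that also touches Wnt signalling, had 4.90 and 5.24, against 6.44 with control MO (-1.37 ± 0.25, adjusted p = 0.0286), and the kinase gene csnk1a1.L also fell (-0.57 ± 0.11, adjusted p = 0.0336). In activin/RA caps 0 of the 48 passed by limma, with 1 higher and 3 lower at an unadjusted p under 0.05.

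Known Wnt target genes outside the 55 were counted in the same fits, and several of them were known to change in these data when the list was drawn up. With activin/RA 20 of 34 rose and 0 fell, with a median change of 1.08, against 9.60% higher and 10.9% lower among all probe sets. The list shares tbxt.L and tbxt.S with the mesoderm and endoderm markers. The parts of Wnt signalling, of a direct action of activin or retinoic acid, and of the change in tissue in these rises were not tested. Examples were the caudal gene cdx4.L (5.16 ± 0.28, limma adjusted p = 8.46e-05) and the posterior neural gene gbx2.2.L (3.52 ± 0.16, adjusted p = 5e-05). In untreated caps 10 fell and 1 rose with ERK3 knockdown, against 3.56% and 3.14% of all probe sets. The largest fall was that of ventx1.1.S (-2.93 ± 0.49, limma adjusted p = 0.0235), and ventx1.2.S (-1.84), ventx2.1.L (-1.66), ventx2.1.S (-1.41) and msx1.S (-0.88) fell too. The others were the neural crest gene pax3.L (-1.84 ± 0.24, adjusted p = 0.0161), pax3.S (-1.08), meis3.S (-1.86), gbx2.2.L (-1.13) and ccnd1.S (-1.29 ± 0.27, adjusted p = 0.0385). The gene that rose was myc.L (0.85 ± 0.17, adjusted p = 0.0347). The ventx and msx genes named here also respond to BMP, and the part of Wnt signalling in the falls was not tested.

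In activin/RA caps the target list, drawn up with some of these changes known, had a median of -0.51, against 0.01 over all probe sets. Of its 34 values 28 were negative, against 15986 of 32539 over all probe sets. The Hox cofactor gene meis3.L alone passed there, with 4.45 with MO1/2 and 4.69 with MO3, against 7.13 with control MO (-2.56 ± 0.23, limma adjusted p = 0.0342). gbx2.1.S had 6.01 and 5.91, against 7.72 with control MO (-1.76 ± 0.24, adjusted p = 0.0598), and gbx2.2.L had 7.22 and 7.14, against 8.75 with control MO (-1.57 ± 0.22, adjusted p = 0.0674). In both gbx2 genes the ERK3 arrays lay close together below the control array, without passing.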

How the data were processed

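The authors normalized 6 GeneChip Xenopus laevis Genome 2.0 arrays (250 ng of total RNA each) with RMA in Expression Console, per the series' design text. The deposited intensity values were linear (2.13 to 18347), so log2 of each was taken, where the design had assumed log2 values. After 96 control probe sets were removed, 32539 were tested with no filter. Symbols came from the platform annotation, and 52 of the 55 genes matched the RefSeq gene table by identifier. limma 3.58.1 in R 4.3.3 (lmFit, eBayes with intensity trend) tested activin/RA with the morpholino as a block, and knockdown, culture and their interaction in a second fit, in which a culture has 1 control array, taken to have the spread of the rest. Residual degrees of freedom were 2 in either fit. The fits were also run on simulated arrays with independent noise, which do not carry the shared effects of a single experiment. Calls were made at 0.05 after Benjamini-Hochberg adjustment across every probe set. The number of arrays limits the precision.

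Genes, marker, pathway and target lists were chosen with earlier results of these data known. Named were, by role, the genes that passed, those changed 2-fold with both reagents, their other copies and up to 4 bright genes that passed nowhere, with others added after their values were seen. Sequences were not used here.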

Additional observations from a re-analysis of the deposited data

Results flagged for a closer look

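For 13 of the 55 genes both ERK3 reagents lay on one side of the control array in untreated caps and on the other side in activin/RA caps. The share of all probe sets with this pattern is not given here, so the count says nothing about the Wnt genes as a set. The difference between cultures (knockdown effect in activin/RA caps minus that in untreated caps, log2) was -1.57 for fzd10.L and dkk1.S, -1.38 for wnt8a.L, -0.79 for lrp5.L, -0.74 for wnt3a.S, -0.62 for axin2.L, -0.49 for axin1.S, -0.24 for sp5.S and -0.14 for sfrp5.L. It was 0.91 for tcf7l1.S, 0.49 for fzd5.S, 0.40 for wnt5a-a and 0.29 for wnt6.S. The second probe sets of dkk1.S, wnt5a-a and wnt6.S did not show the pattern, with differences of -0.53, 0.03 and -0.05. None passed limma's interaction test, with adjusted p of 0.314 for fzd10.L to 0.907 for sfrp5.L, and sign patterns of this kind also arise between arrays that do not differ.

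Probe sets that did not stand for their gene held 2 calls that the chosen probe set lacked. With activin/RA the second dvl3.L probe set fell by 0.47 (limma adjusted p = 0.0377), where the chosen one stood at -0.29. A further wif1.S probe set near the bottom of the scale rose by 0.33 (limma adjusted p = 0.0449), where the chosen one stood at 0.19.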

How the results depend on the processing

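Directions held for all 23 calls on named genes under every setting that could be computed, but most settings could not reverse them. Leaving out the intensity trend, the dim probe sets or the morpholino block does not alter the change itself. For each call all pairs of arrays, or both reagents, already lay on the same side, so leaving out 1 array could not reverse it. For activin/RA, genes higher numbered 16 and ranged from 10 to 21 with 1 array left out, and 10 without the morpholino block. Genes lower numbered 1, with 0 to 4 when 1 array was left out, 0 among probe sets above the median on at least 1 array and 2 with the probe set of median change. For ERK3 knockdown in untreated caps, 5 lower genes became 3 with 16 added before log2 and 0 to 6 with 1 array left out. In activin/RA caps 1 lower gene became 0 without the intensity trend, 0 among probe sets above the median, 3 with 16 added (fzd10.L and fzd10.S joining) and 0 to 1 with 1 array left out. Genes 2-fold lower with both reagents numbered 2 in untreated caps, 0 with 16 added and 4 with arrays centred on their median. In activin/RA caps they numbered 4, and 2 with 16 added. The cause of these shifts was not tested. Over all probe sets, activin/RA calls numbered 6668, and 2860 without the morpholino block; knockdown calls in untreated caps numbered 2180, and 322 without the untreated MO1/2 array; those in activin/RA caps numbered 45, and 203 with 16 added. Knockdown in a culture could not be fitted without its control array. The labels pair the cultures through the injected morpholino, which the activin/RA fit used as a block.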
